A study of Mus musculus with 16 samples.

Results

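The 5 genes described here encode the zinc finger proteins Zfp423 and Zfp521, which are paralogues, and the early B cell factors Ebf1, Ebf2 and Ebf3. They were taken by symbol from tables of 24091 genes, and all 5 were found and passed the filter on low counts in both tissues. The set was chosen because Zfp423 was much higher in knockout (KO) islets. Its islet difference is therefore given as a description with no test, and the question put to the data was whether the paralogue and the Ebf partners moved with it.

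Messenger RNA had been sequenced from 16 mouse libraries, each from 1 animal. Whole pancreata at embryonic day 16.5 (E16.5) came from 3 control embryos with the genotype Tff2fl/fl and 3 KO embryos with the genotype Pdx1:Cre;Tff2fl/fl. Hand-picked islets came from male mice aged 60 weeks, 5 controls and 5 KO animals with these same genotypes. By these genotypes every animal carried the floxed Tff2 allele and Cre was present in the KO groups alone. Loss of Tff2 and presence of the Cre transgene therefore cannot be told apart. The count columns of the control islets are headed WT. The Pdx1 promoter that drives Cre is active in the pancreatic epithelium and in beta cells. The sex and litter of the embryos were not given in the sources used here.

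Zfp423 is a large zinc finger protein that works as a hub between signals. It binds SMAD proteins activated by bone morphogenetic protein (BMP), the intracellular part of Notch and retinoic acid receptors, and it binds Ebf proteins and alters their activity on DNA. Zfp521 has a similar array of zinc fingers, and both recruit the NuRD corepressor through a short motif at the amino terminus. Zfp423 is best known for commitment of cells to the fat lineage and for development of the cerebellum. Ebf1 is required for B cells, Ebf2 for brown fat identity, and Ebf1, Ebf2 and Ebf3 act in mesenchymal and neuronal cells.

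Libraries held 14866194 to 22699934 reads per pancreas and 22595400 to 32385042 per islet sample. Levels are given as CPM, counts relative to library size after TMM scaling within each tissue. Tff2, the targeted gene, measured 22.7 to 38.7 CPM in control and 1.60 to 9.96 CPM in KO pancreata. Islets measured 0.977 to 4.70 CPM in control and 0 to 0.478 CPM in KO animals. The groups did not overlap in either tissue, as 31.1% of genes did not at E16.5 and 1.55% in islets. By edgeR Tff2 passed the threshold of 0.05 at E16.5 (log2 fold change -2.80, adjusted p = 0.0297). It did not pass in islets (log2 fold change -3.07, adjusted p = 0.0884). The 8 beta cell markers summed to 117630 to 153502 CPM over all islet libraries. In pancreata acinar, endocrine and mesenchymal markers were all present. The pancreas of KO 01 had a summed level of 4 liver markers of 1503 CPM against 301 to 508 CPM in the other 5. Among KO islets, library 055 lay furthest from the others over the whole table, with a chi-square per degree of freedom of 24.2 to 32.5 in its pairs against 8.05 to 17.8 in the pairs without it. In these bulk samples, fewer cells of a type and less RNA per cell cannot be told apart.

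Zfp423 was low in every control islet and high in 4 of 5 KO islets, with the remaining KO library in between. The control islets 052, 826, 829, 857 and 858 measured 1.64, 1.10, 0.814, 1.29 and 1.31 CPM, from 25 to 37 reads each. The KO islets 055, 122, 803, 812 and 845 measured 7.93, 85.3, 93.7, 121 and 78.3 CPM, from 206, 2213, 3134, 2702 and 1816 reads. The groups did not overlap. The lowest KO library stood 6.44-fold above the control mean and the others 63.6-fold to 98.2-fold. Group levels were 1.23 ± 0.303 CPM in controls and 77.2 ± 42.0 CPM in KO islets (SD, n = 5 each), and 94.5 ± 18.7 CPM (SD, n = 4) without KO 055. The log2 fold change was 5.99 (SE 0.644, 95% interval 4.58 to 7.39), the highest of 14219 genes tested. This difference chose the gene, so its interval and rank are a description and it is not tested here.

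**Figure D1:**
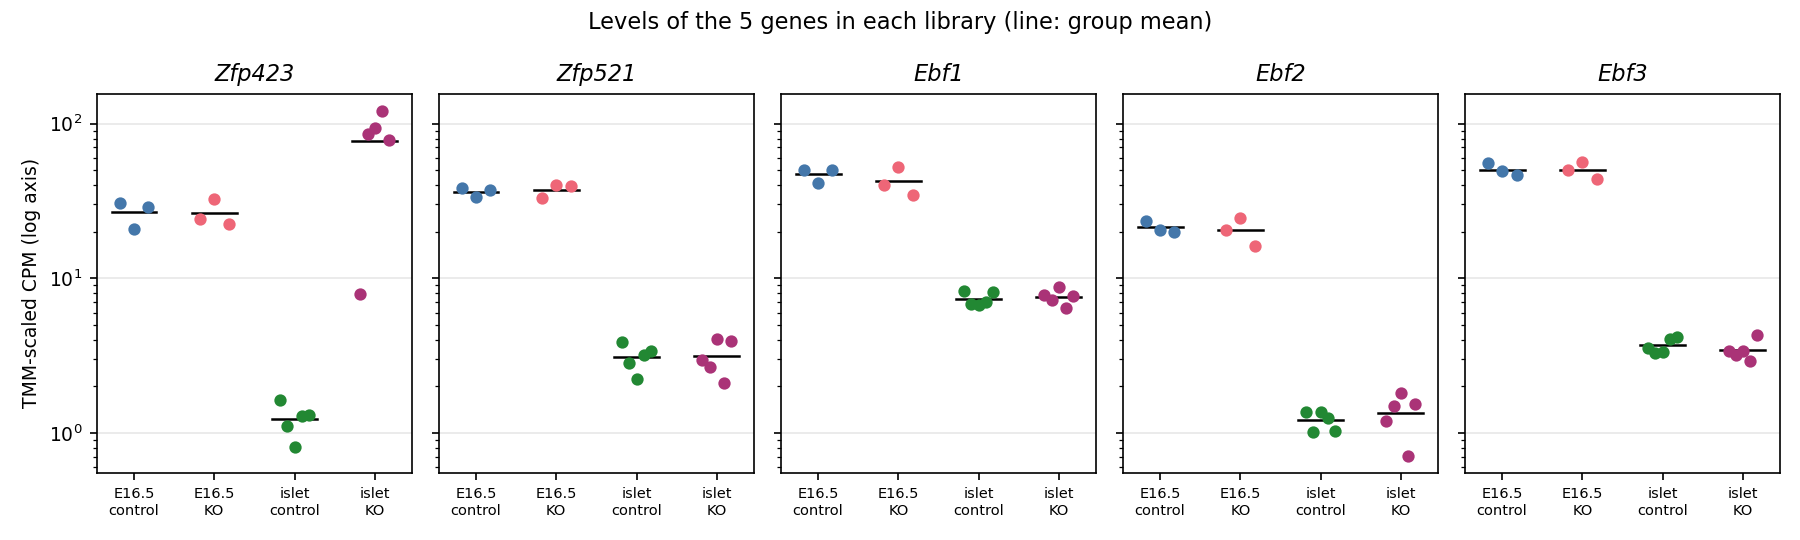
Level of each of the 5 genes in every library, in TMM-scaled CPM on a log axis, with 1 point per library and a line at each group mean. Zfp423 is the gene whose islet groups separate, with KO 055 at 7.93 CPM below the other KO islets, while the islet points of the other 4 genes overlap.

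KO 055 also differed from the other KO islets in markers of other cells. Its 4 red cell markers summed to 192 CPM against 14.4 to 64.9 CPM in the other KO islets, and its 8 sympathetic neuron and chromaffin markers to 59.3 CPM against 122 to 207 CPM. Control 052 also stood apart from the other control islets on these lists. Its red cell markers summed to 63.6 CPM against 12.3 to 17.9 CPM, and its sympathetic neuron and chromaffin markers to 54.0 CPM against 105 to 148 CPM. The part of these markers in the Zfp423 level of KO 055 was not tested. Tff2 had 0 reads in KO 055 and 12, 16, 8 and 2 in KO 122, 803, 812 and 845.

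Zfp423 lies on chromosome 8 from 87661810 to 87959595 on the minus strand (mm10). The GENCODE annotation of the same build gives it 7 transcripts, of which 5 are coding, with 2 to 8 exons and 5 start positions. The counts are per gene, so the start that was used in KO islets was not resolved. Upstream windows from RefSeq (GRCm38.p6) are reported for 3 of the 5 genes. Both windows of Zfp423, the gene that differed, are printed as the 250 bases 5′ of a start on the minus strand. The first, chr8:87959596-87959845, lies before the outermost start, and the second, chr8:87804440-87804689, lies before a start inside the gene. Capitals mark the only match in either window to CCCNNGGG, the core of the Ebf recognition motif, which reads alike on both strands.
Zfp423 window 1: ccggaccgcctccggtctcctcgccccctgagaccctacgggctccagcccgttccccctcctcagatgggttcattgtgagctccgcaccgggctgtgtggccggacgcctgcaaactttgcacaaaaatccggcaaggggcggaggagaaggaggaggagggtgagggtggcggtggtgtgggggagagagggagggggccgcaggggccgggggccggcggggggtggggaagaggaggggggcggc
Zfp423 window 2: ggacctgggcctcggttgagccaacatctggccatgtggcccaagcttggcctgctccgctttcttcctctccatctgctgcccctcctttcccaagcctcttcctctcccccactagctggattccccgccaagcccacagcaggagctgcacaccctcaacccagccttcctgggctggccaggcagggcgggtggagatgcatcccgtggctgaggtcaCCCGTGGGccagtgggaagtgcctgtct

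The match in the second window begins 28 bases before its start, at offset -28. CCCNNGGG occurred in 11.8% of the 32851 such windows that were read, 3882 of them, so a match is common. Ebf3 held a match at offset -21 in its window, and the 2 windows of Ebf1 held none. No window of Zfp521 or Ebf2 is reported here, so no match is given for them. The first Zfp423 window had a GC content of 71.6% with 18 CpG positions and the second 64.8% with 6.

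In fetal pancreas Zfp423 did not differ between genotypes beyond the spread. Control pancreata 02, 08 and 13 measured 30.6, 20.8 and 28.9 CPM and KO pancreata 01, 18 and 19 measured 24.3, 32.6 and 22.6 CPM. The ranges overlap, with the highest level in a KO and the lowest in a control pancreas. The log2 fold change was -0.02 (SE 0.178, 95% interval -0.43 to 0.39, edgeR adjusted p = 0.957). None of the 5 genes passed at E16.5 by edgeR, where 6.43% of 14914 genes did, nor had any of them an unadjusted p under 0.05, and none had groups without overlap, as 31.1% of genes had.

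Zfp521, the paralogue, did not move with Zfp423 in islets. Control islets measured 3.86, 2.84, 2.25, 3.21 and 3.37 CPM and KO islets 2.97, 2.66, 4.06, 2.10 and 3.92 CPM, in the order of libraries given for Zfp423. The groups overlap across nearly their whole ranges, and KO 812, with the highest Zfp423, had the lowest Zfp521. The log2 fold change was 0.03 (SE 0.196, 95% interval -0.40 to 0.46, adjusted p = 0.994). At E16.5 Zfp521 measured 38.4, 33.4 and 37.1 CPM in controls and 33.0, 39.9 and 39.3 CPM in KO pancreata. These ranges also overlap, and the log2 fold change was 0.04 (SE 0.0939, 95% interval -0.18 to 0.26, adjusted p = 0.817).

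Ebf1, the factor of the B cell lineage, overlapped between genotypes in both tissues. Control islets measured 8.25, 6.79, 6.74, 7.005 and 8.12 CPM and KO islets 7.82, 7.28, 8.82, 6.44 and 7.63 CPM. The highest and the lowest values were both in KO islets. The log2 fold change was 0.05 (SE 0.0998, 95% interval -0.17 to 0.26, adjusted p = 0.968). In pancreata controls measured 49.8, 41.0 and 49.8 CPM and KO embryos 39.9, 52.1 and 34.7 CPM, overlapping, with a log2 fold change of -0.15 (SE 0.148, 95% interval -0.50 to 0.19, adjusted p = 0.552).

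Ebf2, the Ebf gene tied to brown fat, was the lowest of the 3 in islets per kb of gene length. Control islets measured 1.37, 1.02, 1.37, 1.25 and 1.03 CPM and KO islets 1.19, 1.50, 1.82, 0.716 and 1.55 CPM. The values of KO 122, 803 and 845 exceeded every control value and KO 812 lay below every control value, so the groups overlap. The log2 fold change of 0.18 had the widest interval among the 4 partners (SE 0.227, 95% interval -0.31 to 0.67, adjusted p = 0.924), whose upper end is a fold of 1.59. In pancreata Ebf2 measured 23.3, 20.6 and 20.0 CPM in controls and 20.4, 24.7 and 16.2 CPM in KO embryos, with a log2 fold change of -0.07 (SE 0.149, 95% interval -0.41 to 0.28, adjusted p = 0.815).

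Ebf3 also overlapped between genotypes. Control islets measured 3.55, 3.31, 3.32, 4.08 and 4.20 CPM and KO islets 3.39, 3.20, 3.41, 2.91 and 4.31 CPM. The highest value was in KO 845 and the lowest in KO 812. The log2 fold change was -0.10 (SE 0.128, 95% interval -0.38 to 0.18, adjusted p = 0.923). Pancreata measured 55.6, 49.2 and 46.2 CPM in controls and 49.95, 56.8 and 43.7 CPM in KO embryos, and the log2 fold change was -0.01 (SE 0.108, 95% interval -0.26 to 0.24, adjusted p = 0.972).

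Thus 0 of the 4 partners passed in islets, where 0.155% of genes did, and 0 of the 4 had groups without overlap, as 1.55% of genes had. None of the 4 had an unadjusted p under 0.05 by edgeR, DESeq2 or limma-voom, and over 21 alternative settings no partner passed in islets. Nor did the genotype effect of a partner differ between tissues in the model over all 16 libraries, in which 7.19% of genes passed. There the differences of log2 fold change, islets minus pancreas, were 0.02 for Zfp521, 0.22 for Ebf1, 0.27 for Ebf2 and -0.08 for Ebf3 (adjusted p = 0.990, 0.520, 0.637 and 0.846). At E16.5 the calls of Zfp521 and Ebf3 depended on the scaling. With libraries scaled to 16 epithelial genes, 11 of which fell in KO pancreata, they passed at 0.48 and 0.44 (adjusted p = 0.0101 and 0.0130), while the median log2 fold change over the whole table was then 0.44 and 10451 genes passed.

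**Figure D2:**
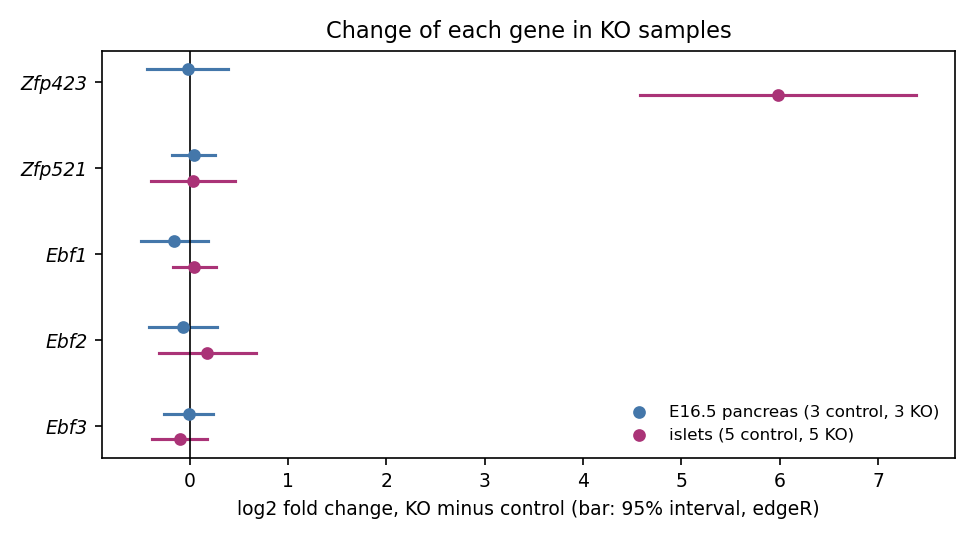
Log2 fold change of each gene, KO minus control, with its 95% interval from edgeR, in E16.5 pancreas and in islets. Zfp423 in islets lies at 5.99, a value that chose the set, and its interval is a description. The other 9 estimates lie between -0.15 and 0.18 with intervals that include 0.

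All 5 genes were lower in control islets than in control pancreata. The log2 differences were -4.24 for Zfp423, -3.34 for Zfp521, -2.46 for Ebf1, -3.92 for Ebf2 and -3.55 for Ebf3 (SE 0.0932 to 0.178, adjusted p from 2.79e-12 for Ebf3 to 1.77e-10 for Zfp423). Of all genes tested 86.5% passed in this contrast, and 44.7% passed as lower in islets. The tissues differ in age, in cell makeup and in preparation, which cannot be told apart. The 14 mesenchyme and fibroblast markers summed to 17146 to 20017 CPM in control pancreata and 166 to 212 CPM in control islets, and their part in the difference was not tested.

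Levels of different genes were compared per kb of the deposited gene length. In control pancreata Ebf3 led with 10.1 ± 0.962 CPM per kb (SD, n = 3). Zfp521, Ebf1 and Zfp423 followed at 5.62, 5.41 and 5.37 CPM per kb with overlapping values, and Ebf2 was below them at 3.74. The KO pancreata also had Ebf3 first at 10.01 CPM per kb, and there the other 4 overlapped from neighbour to neighbour. In control islets Ebf1 and Ebf3 led at 0.852 and 0.737 CPM per kb with overlapping values. Zfp521 followed at 0.481, and Zfp423 and Ebf2 were last at 0.247 and 0.212, overlapping. In KO islets Zfp423 was first at 15.5 ± 8.42 CPM per kb (SD, n = 5). It was above every other gene of the set in each KO library, followed by Ebf1 at 0.877, Ebf3 at 0.688, Zfp521 at 0.487 and Ebf2 at 0.238.

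The balance of the 2 paralogues differed accordingly. The ratio of Zfp423 to Zfp521 per kb was 0.744 to 1.06 over the 6 pancreata and 0.469 to 0.551 over the control islets. In KO islets 055, 122, 803, 812 and 845 it was 3.47, 41.5, 29.9, 74.5 and 25.9. The ratio rests on Zfp423, which chose the set, and is a description.

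**Figure D3:**
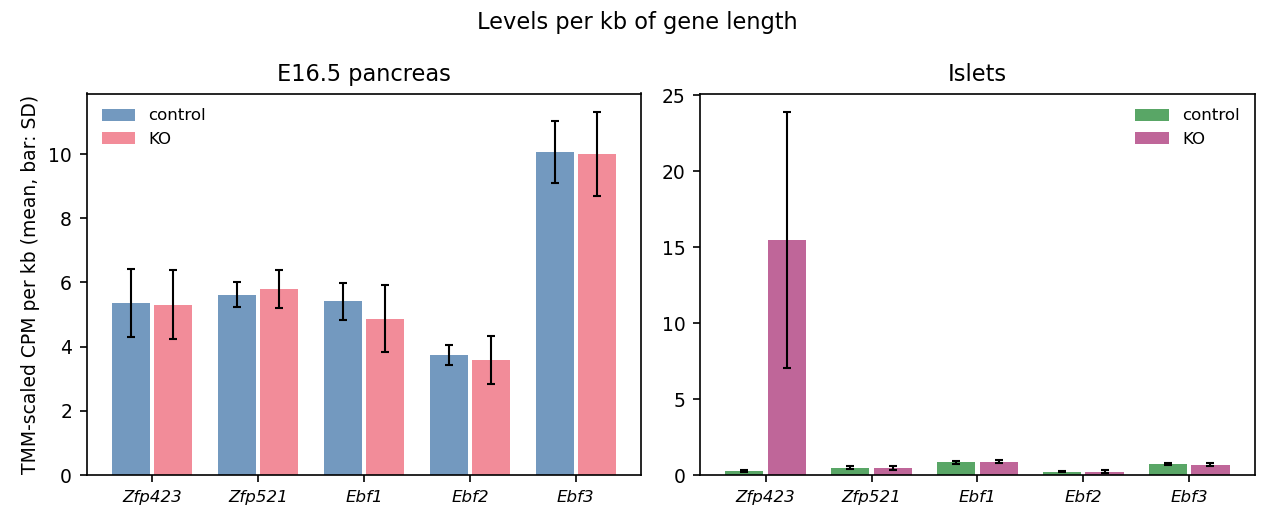
Mean level of each gene in TMM-scaled CPM per kb of gene length, with bars from 0 and error bars of 1 SD, for E16.5 pancreas (n = 3 per group) and islets (n = 5 per group). The 2 panels have separate scales, and in islets the Zfp423 bar of the KO group at 15.5 exceeds all others, which lie below 1.

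Mesenchyme and fibroblast markers varied among islet libraries, and the libraries at their extremes were also at the extremes of several partners. The summed mesenchyme and fibroblast markers were 166 to 212 CPM in control islets and 180, 123, 274, 78.4 and 240 CPM in KO 055, 122, 803, 812 and 845. KO 812, the lowest of all 10 in these markers, was also the lowest of all 10 in Zfp521, Ebf1, Ebf2 and Ebf3, and the highest in Zfp423. KO 803, the highest in these markers, was the highest in Zfp521, Ebf1 and Ebf2. None of the 11 markers tested on that list passed in islets. The 8 pericyte and smooth muscle markers had other extremes, 401 CPM in control 826 and 482 CPM in KO 055. On these KO 812 and 803 were at 415 and 454 CPM. The 7 endothelium markers ran from 848 CPM in control 857 to 1048 CPM in KO 055. Of 5 fat cell markers Adipoq, Plin1 and Lep had 0 reads in every islet library, while Cidec and Fabp4 had reads in both groups. These 5 markers summed to 10.9 to 15.3 CPM over the islet libraries, and the 5 B cell markers to 3.81 to 12.4 CPM. The part of stromal content in the levels of the partners was not tested.

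Genes near Zfp423 did not differ with it. Of 20 entries within 1 Mb, 13 were tested in each tissue and none passed in either by edgeR, DESeq2 or limma-voom (2 in islets and 1 at E16.5 had an unadjusted edgeR p under 0.05, against 1021 of 14219 and 3791 of 14914 genes over the whole tables), with islet log2 fold changes from -0.31 to 0.52 (median -0.03, lowest adjusted p = 0.570) and E16.5 values from -0.18 to 0.24. The nearest tested gene toward higher coordinates was Cnep1r1, a subunit of a nuclear envelope phosphatase, at 159 kb. It measured 39.5 ± 2.64 CPM in control and 37.6 ± 1.26 CPM in KO islets (SD, n = 5 each; log2 fold change -0.07, adjusted p = 0.849). Toward lower coordinates it was N4bp1, a ribonuclease of innate immunity, at 777 kb, with 99.1 ± 5.84 and 97.0 ± 5.80 CPM (log2 fold change -0.03, adjusted p = 0.957). With scaling to epithelial genes 10 of the 13 passed at E16.5, as most genes did, and with all 16 libraries in 1 fit Lonp2 passed there as lower. Cbln1, which encodes a synapse organiser of the cerebellum and lies nearer at 189 kb, was too low to test, at 0.0559 and 0.0437 CPM.

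**Figure D4:**
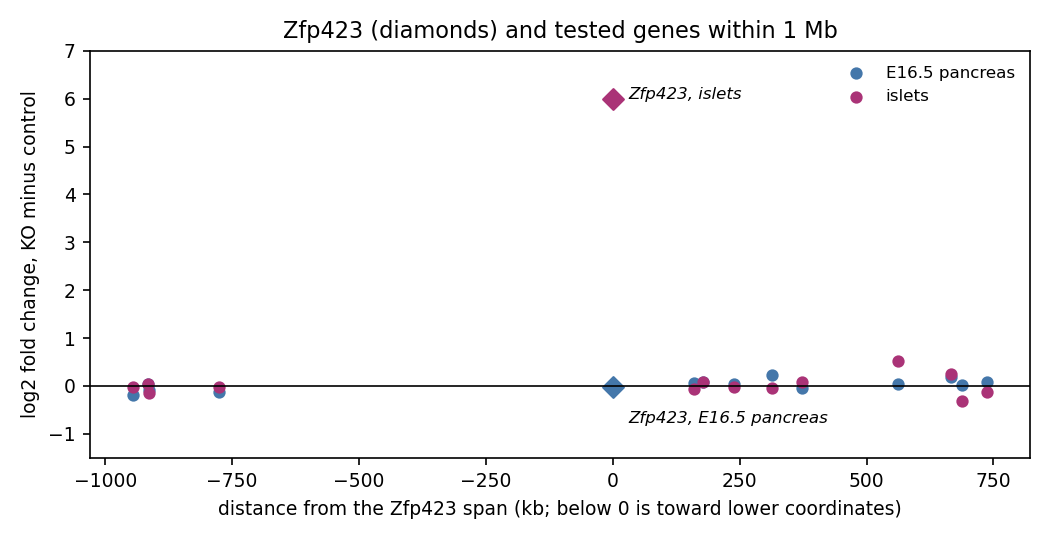
Log2 fold change, KO minus control, of Zfp423 (diamonds) and of the 13 tested genes within 1 Mb (circles), against distance in kb from the span of Zfp423. In islets Zfp423 lies at 5.99 and its neighbours between -0.31 and 0.52.

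Zfp521 lies on chromosome 18 (13687014 to 13972733, minus strand), Ebf1 on chromosome 11 (44618100 to 45008096, plus strand), Ebf2 on chromosome 14 (67233292 to 67430952, plus strand) and Ebf3 on chromosome 7 (137193671 to 137314445, minus strand). None of 32 tested genes within 1 Mb of any of these passed in islets by edgeR or limma-voom, and with DESeq2 Nefm near Ebf2 did. Of the 32, 4 had an unadjusted edgeR p under 0.05, against 1021 of 14219 genes over the whole islet table. At E16.5 the neighbours that passed by edgeR were 3 of 14 around Ebf2, where 6.43% of all genes passed, named here after their values were seen. Nefl and Nefm, neurofilament genes, rose by 3.18 and 2.28 on the log2 scale and Stmn4, a stathmin of neurons, by 2.54 (adjusted p = 0.0274, 0.0419 and 0.0477). None of the 3 passed without control 02, 08 or 13 (adjusted p from 0.0816 to 0.188) or with a robust fit (adjusted p from 0.0612 to 0.102), nor did Stmn4 without KO 18 or with limma-voom (adjusted p = 0.0647 and 0.0996). Without KO 01 they were at 2.28, 1.39 and 1.76, past the threshold. The 8 sympathetic neuron and chromaffin markers, of which 7 rose, summed to 60.8 to 74.0 CPM in control pancreata and to 604, 304 and 165 CPM in KO 01, 18 and 19. Their part in these 3 genes was not tested. Impact, a translation regulator near Zfp521, and Dpysl2, an axon growth gene near Ebf2, did not pass (log2 fold change 0.23 and 0.52, adjusted p = 0.0518 and 0.0763). Impact passed with RLE, upper quartile or library total scaling, with a filter of 1 CPM and with limma-voom. Dpysl2 passed with DESeq2 and without KO 19, and both passed with all 16 libraries in 1 fit, as did Adra1b near Ebf1, which also passed without KO 18. With epithelial scaling 27 of the 31 tested neighbours of the partners passed.

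The pathways that Zfp423 and the Ebf proteins join were read from 82 listed genes, chosen with earlier results of these data known. In islets, none of the 61 tested passed by edgeR, DESeq2 or limma-voom, 8 had an unadjusted edgeR p under 0.05 against 1021 of 14219 genes over the whole table, and the median log2 fold change was -0.00, as it was over all genes. The log2 fold changes of the 61 ran from -0.61 to 1.27. Cyp26b1 passed with mesenchyme scaling, and Nog with all 16 libraries in 1 fit. Among BMP ligands Bmp6 and Bmp5 were the most abundant, at 6.02 and 6.98 CPM for Bmp6 and 2.25 and 2.26 CPM for Bmp5 in control and KO islets. The receptor genes Bmpr1a and Bmpr2 had log2 fold changes of -0.00 and 0.03. Smad7, an inhibitory SMAD, was at 0.18 (unadjusted p = 0.0101, adjusted p = 0.487) and the decoy receptor gene Bambi at -0.06.

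Genes of the other inputs also did not pass in islets by edgeR. The Notch targets Hes1 and Heyl were at -0.14 and -0.07, and the retinoid X receptor genes Rxra and Rxrb at 0.01 and -0.00. The median was 0.06 over the 5 tested Notch targets. It was 0.13 over the 7 tested genes of the list of retinoic acid receptors and targets. Of fat commitment genes 9 of 14 were tested, with Pparg, the master regulator of fat cells, at 16.6 and 14.8 CPM (log2 fold change -0.16, adjusted p = 0.781) and the lipoprotein lipase gene Lpl at -0.12. Of early B cell targets of Ebf1 2 of 10 were tested, Cd79a at -0.08 and Cd22 at 0.76 (adjusted p = 0.977 and 0.796). None of 13 NuRD genes passed, with the remodeller genes Chd3 and Chd4 at 0.03 and 0.02. Ebf4, the remaining member of the Ebf family, measured 1.03 ± 0.292 and 0.981 ± 0.144 CPM (SD, n = 5 each; log2 fold change -0.06).

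At E16.5, where the 5 genes did not differ, 7 of 68 tested genes of these lists passed (9 with DESeq2 and with limma-voom), 10.3% against 6.43% of all genes, with a list median of 0.07 against -0.00. The count was 55, all higher, with epithelial scaling and 5, all higher, with mesenchyme scaling, and it was 12 without KO 01, 5 without KO 18 and 4 without KO 19. In the BMP lists 4 rose and 1 fell. Smad9, a receptor-activated SMAD, rose from 3.55 ± 0.411 to 8.91 ± 2.04 CPM (SD, n = 3 each; log2 fold change 1.33, adjusted p = 0.0186). The receptor gene Bmpr2 rose by 0.33 (adjusted p = 0.0248), and the secreted modulators Grem1 and Bmper rose by 1.11 and 0.90 (adjusted p = 0.0298 and 0.0358). The ligand gene Bmp7 fell from 105 ± 6.24 to 80.1 ± 3.20 CPM (log2 fold change -0.39, adjusted p = 0.0231), but was at 0.06 with scaling to epithelial genes. The 16 epithelial markers summed to 2828 to 3300 CPM in control and 2245 to 2337 CPM in KO pancreata, and their part in Bmp7 was not tested. Summed markers of some other cells had higher medians in KO pancreata beside the genes that rose. The ranges of the mesothelium list and of the pericyte and smooth muscle list overlapped between genotypes. The sympathetic list is given with the neighbours of Ebf2, the 5 mesothelium markers, of which 1 rose, summed to 212 to 310 CPM in control and 288 to 446 CPM in KO pancreata, and the 8 pericyte and smooth muscle markers, of which 3 rose, to 512 to 600 and 563 to 701 CPM. Myh11 and Cnn1, contractile genes of smooth muscle, were at 1.51 and 1.75, and Acta2, which also rose, at 0.59. Of the same list Des was at 0.21, Cspg4 at -0.07, Rgs5 at -0.16, Notch3 at -0.17 and Pdgfrb at -0.19. The list median was 0.07. The 7 endothelium markers, of which 1 fell, summed to 731 to 950 CPM in control and 563 to 743 CPM in KO pancreata. The part of these cells in the rises was not tested.

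The Notch target Hey2 rose by 0.65 (adjusted p = 0.0419) and Stra6, the retinol transporter gene, by 1.12 (adjusted p = 0.0429). Of the 5 Notch targets tested the other 4 did not pass, with Nrarp at -0.47, Hes1 at -0.21, Heyl at -0.19 and Hey1 at 0.08. The median of that list was -0.19. Nrarp passed as lower with DESeq2, limma-voom, no low-count filter, all 16 libraries in 1 fit and without KO 01. No tested gene of the fat, B cell or NuRD lists passed, with log2 fold changes of -0.10 for Lpl, -0.21 for the fatty acid transporter gene Cd36, 0.84 for Cd79b, 0.35 for Pou2af1, 0.02 for Chd4 and -0.13 for the histone chaperone gene Rbbp7. Ebf4 measured 6.66, 5.60 and 6.44 CPM in controls and 8.26, 8.33 and 10.6 CPM in KO pancreata. Its groups did not overlap, yet it did not pass (log2 fold change 0.54, SE 0.150, adjusted p = 0.0699). All 7 list calls were lost when control 02, 08 or 13 was left out, which left 0, 4 and 0 genes called over the whole table. Bmper, Grem1 and Hey2 also did not pass without KO 18 or KO 19, nor Stra6 without KO 18 (adjusted p from 0.0534 to 0.0901). With scaling to mesenchyme genes Bmp7, Bmpr2 and Hey2 did not pass (adjusted p = 0.205, 0.584 and 0.103), and Ebf4 passed with library totals (adjusted p = 0.0478) and with epithelial scaling (adjusted p = 0.00214).

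**Figure D5:**
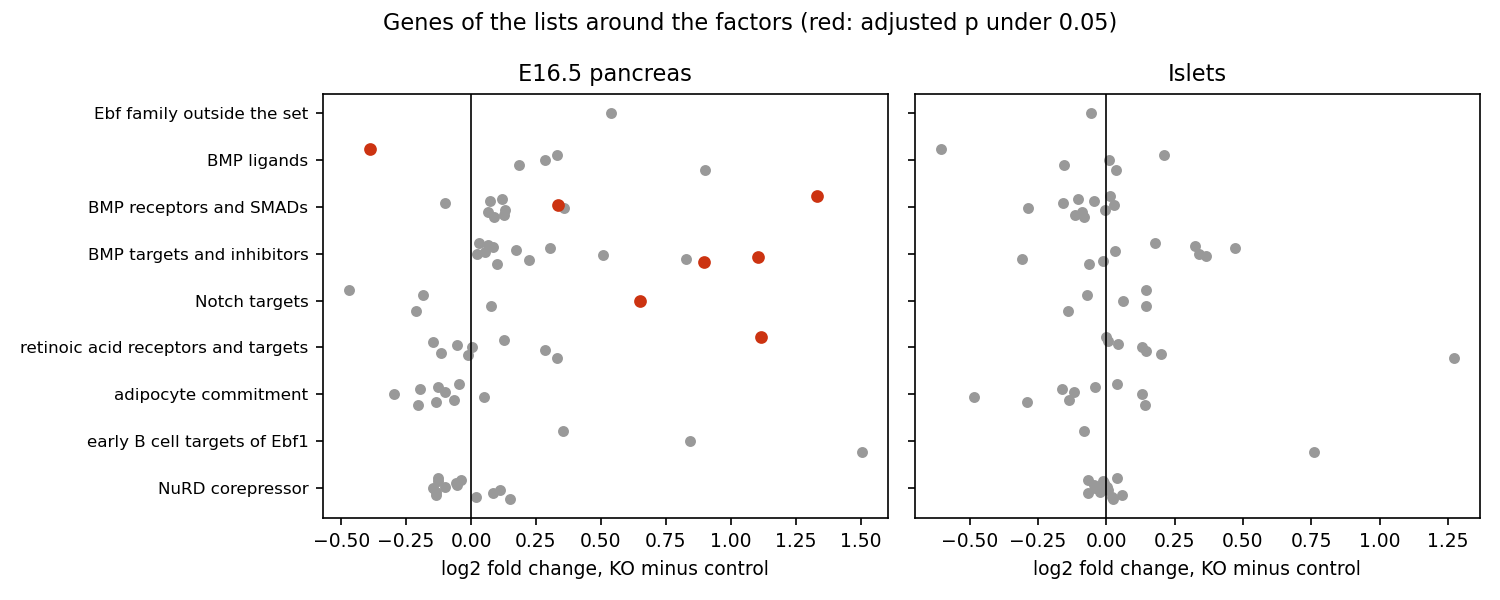
Log2 fold change, KO minus control, of each tested gene of the 9 lists around the factors, with genes past an edgeR adjusted p of 0.05 in red. At E16.5 (68 genes) 6 rose and 1 fell, and in islets (61 genes) none passed.

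Likeness was measured as Pearson's r of log2 CPM after removal of the genotype means, as a description. Over the 10 islet libraries, among 12512 genes, Zfp423 was most like Fzr1, Ift80 and Ltbp2 (r = 0.96, 0.93 and 0.93). Its r with the other members of the set ran from -0.07 for Ebf1 to 0.09 for Zfp521, whereas Zfp521 and Ebf1 had an r of 0.85. These values for Zfp423 share the low library KO 055.

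The partners were most like other genes. In islets Zfp521 was most like Aplp2, Sulf1 and Basp1 (r = 0.96, 0.95 and 0.95), and Ebf1 like Myl9, Cenpl and Des (r = 0.93 each). Ebf2 was most like Mfn2, Fxyd1 and Trip10 (r = 0.93, 0.92 and 0.90), and Ebf3 like Nacad, Fam13c and Timp2 (r = 0.97, 0.94 and 0.94). Among these genes Myl9 and Des encode proteins of smooth muscle, and Timp2 and Sulf1 act in the extracellular matrix. A role shared by the genes named was not tested. They are the 3 highest of 12512 genes for each partner over 10 libraries. How high such values run by chance was not tested.

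At E16.5 only 6 libraries carry the measure, and the top values were all at least 0.99. The closest genes were Cr1l, Smap2 and Ctla2b for Zfp423, Pltp, Nfkb1 and Ccnd3 for Zfp521, Tnfaip1, Cpe and Rac1 for Ebf1, Nrp1, Polr2f and Cd4 for Ebf2, and Romo1, Capns1 and Add1 for Ebf3. Within the set, Ebf2 and Ebf3 had an r of 0.96 and Zfp423 and Ebf1 of 0.94.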

How the data were processed

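Per tissue, a deposited table gives whole-number read counts for each gene, as the authors left them, and a gene length in kb. Totals differ between libraries. The build mm10 and the tools STAR 2.6.0, HTSeq 0.11.1, Trimmomatic and edgeR are named, without roles, in the submitters' processing notes. Per the labels' protocols, polyadenylated RNA was prepared with a Kapa mRNA HyperPrep kit. The strand setting of the counting was not given. Reads of Ebf2 therefore cannot be told apart from those of the antisense entries 4930438E09Rik and Gm6878, nor reads of Ebf3 from those of Gm10578. The group means of these entries were 0 to 0.203 CPM.

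Groups came from the titles. For each tissue edgeR 4.0.16 (R 4.3.3) fitted a quasi-likelihood model with TMM scaling and the default filterByExpr, which left 14914 genes at E16.5 and 14219 in islets. P-values were adjusted by Benjamini-Hochberg over all genes tested, with a threshold of 0.05. The SE of a fold change was derived from its F statistic. A fit over 16 libraries tested tissue by genotype. Log2 CPM used a prior count of 2. No pair of libraries in a group agreed within sampling noise (chi-square per degree of freedom at least 4.90). Animals may share litters, in which case they are not independent. The p-values set each difference against the variation between these samples alone.

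The genes named are the 5 members, Tff2, the called genes of each list or its 2 most abundant, the nearest tested neighbours of Zfp423 and the 3 genes most like each member. Members and lists were chosen with earlier results of these data known. Alternatives used DESeq2 1.42.0, limma 3.58.1, other scalings and filters, and left out each library in turn. The scripts were tested on simulated data.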

Additional observations from a re-analysis of the deposited data

Results flagged for a closer look

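Zfp423 in the islets of KO 055 measured 7.93 CPM (7.934 before rounding) against 78.3 to 121 CPM in the other 4 KO islets. Its gap to the nearest library took 0.84 of the range of the group on the log2 scale, above Dixon's 95% critical value of 0.71 for 5 samples. On the linear CPM scale it was not past that value. In all, 20 such checks were made, of 5 genes in 2 islet groups on 2 scales, and chance flags about 1 group in 20. The flagged values belong to the gene and the group that chose the set, so the flag is a description. KO 055 had 0 reads of Tff2, the fewest of the 5 KO islets.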

How the results depend on the processing

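No paired analysis was possible because the animal numbers in the labels are not shared between groups. Zfp423 in islets had a log2 fold change of 5.68 to 6.53 over 21 alternatives, and no partner passed in islets in any of them. At E16.5 none of the 5 genes passed in 16 of 17 alternatives. With scaling to epithelial genes Zfp521 was at 0.48 and Ebf3 at 0.44, above 0 where it had been -0.01, while the median of all genes was 0.44.

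The count at E16.5, 959 genes with 560 higher, was 1550 with DESeq2, 2070 with all 16 libraries in 1 fit and 10451 with epithelial scaling (10416 higher). It was 958 with library totals (779 higher) and 747 with scaling to mesenchyme genes (590 higher). Leaving out 1 library gave 0 to 1035 genes, with 0, 4 and 0 without control 02, 08 and 13. The islet count of 22 was 112 with DESeq2, 6 with epithelial scaling and 10 with mesenchyme scaling, under which the median log2 fold change of the whole table was 0.38. Leaving out 1 islet library gave 5 to 26 genes, with 8, 8, 6 and 5 without control 052, 826, 857 and 858 and 8, 6 and 14 without KO 803, 812 and 845. The 1137 genes whose effect differed between tissues became 515 to 1186, with 515, 680 and 721 without control pancreas 02 and 08 and KO pancreas 01. These leave-one-out fits of the interaction, and member levels without KO 055, were added after seeing the data. The causes were not tested.

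In control islets Zfp423 and Ebf2 rest on few reads, 25 to 37 for Zfp423, and in 3 against 3 pancreata changes inside the intervals given were not detectable.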
